A study of Mus musculus with 17 samples.

Results

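White fat stores energy as triglyceride, and the 10 genes described here build that molecule or supply the glycerol-3-phosphate backbone onto which it is built. They were listed by name for their place in the pathway and matched by Ensembl identifier, and all 10 were found among the 55401 genes of the deposited tables. They were read in the perigonadal depot of white fat (pWAT) of C57BL/6J mice in which all exons of the long non-coding RNA gene *U90926* are deleted on both alleles (U9-KO) and of their WT littermates. RNA-seq libraries were made from 5 WT females, 5 U9-KO females, 3 WT males and 4 U9-KO males, with 1 library per mouse, and all mice came from heterozygous crosses and ate normal chow. Age at collection was 16 weeks by the methods and 19 weeks by the chart of the phenotyping screen, and the feeding state at collection is not given in the sources used here. The study asked whether loss of *U90926* alters weight gain, adiposity and related traits, and the RNA of this fat depot was among its readouts.

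The pathway runs in a few steps. In adipocytes, which have little glycerol kinase, glycerol-3-phosphate is drawn from glycolysis through glycerol-3-phosphate dehydrogenase (*Gpd1*) or, when glucose is scarce, from pyruvate through the cytosolic phosphoenolpyruvate carboxykinase (*Pck1*), a route known as glyceroneogenesis. Fatty acids are then added in turn by the glycerol-3-phosphate acyltransferases (*Gpam* in mitochondria, *Gpat3* in the endoplasmic reticulum) and by *Agpat2*, the phosphate is removed by lipin 1 (*Lpin1*), and the last fatty acid is added by *Dgat1* or *Dgat2*. Glycerol freed by lipolysis leaves the cell through the channel aquaporin 7 (*Aqp7*), and glycerol kinase (*Gk*, listed in the pathway as *Gyk* and named *Gk* by GENCODE M21) can return it to glycerol-3-phosphate.

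Upstream sequence is shown for 3 members that behaved differently across the mice. *Pck1* was high in the females in which *Gpd1* and *Dgat2* were low, *Agpat2* was among the members that were low together, and *Gk* varied least over the 17 mice. The windows are from RefSeq on GRCm38.p6, read 5′ to 3′ on the strand of the gene, and end at the RefSeq start for *Agpat2* and *Gk*. For *Pck1* the last 25 bases before the RefSeq start were left out because GENCODE places them inside the gene. Capitals mark matches on either strand to 5 short motifs. TGACGT is the core of the cAMP response element, CACGTG is the E-box bound by basic helix-loop-helix factors, and GGGCGG is the GC box bound by factors of the Sp1 family. TATAAA marks the core promoter element of that name, and CCAAT the box bound by the factor NF-Y.
Pck1 (chr2:173152823-173153047, plus strand): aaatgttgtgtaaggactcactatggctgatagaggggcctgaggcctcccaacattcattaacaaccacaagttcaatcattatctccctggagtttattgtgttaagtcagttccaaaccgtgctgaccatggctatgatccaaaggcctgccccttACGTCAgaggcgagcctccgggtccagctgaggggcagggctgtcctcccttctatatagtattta
Agpat2 (chr2:26604418-26604667, minus strand): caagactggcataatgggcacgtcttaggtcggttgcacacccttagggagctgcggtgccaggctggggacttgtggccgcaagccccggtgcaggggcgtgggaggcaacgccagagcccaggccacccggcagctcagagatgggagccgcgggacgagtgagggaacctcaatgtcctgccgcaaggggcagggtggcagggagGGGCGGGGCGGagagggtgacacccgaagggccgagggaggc
Gk (chrX:85776820-85777069, minus strand): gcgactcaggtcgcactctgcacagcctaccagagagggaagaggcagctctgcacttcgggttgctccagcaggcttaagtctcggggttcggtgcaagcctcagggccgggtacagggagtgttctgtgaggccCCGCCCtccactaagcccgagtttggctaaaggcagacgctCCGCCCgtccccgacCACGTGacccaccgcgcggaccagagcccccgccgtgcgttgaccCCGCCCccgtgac
The *Pck1* window holds ACGTCA, the reverse complement of TGACGT, starting 91 bases before the RefSeq start. The *Agpat2* window holds GGGCGG starting 42 and 37 bases before the start, as matches that overlap each other. The *Gk* window holds CACGTG, which is its own reverse complement, starting 58 bases before the start, and CCGCCC, the reverse complement of GGGCGG, starting 114, 73 and 13 bases before it.

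RefSeq entries were matched for 7 of the 10 members, with 9 start sites in all, and none was matched for *Dgat1*, *Dgat2* and *Gpd1*. Over the 250 bases before each start, TGACGT was found in 3 of the 9 windows of members (*Pck1*, *Gpat3* and *Gpam*), against 6.47% of the 32851 windows of all genes. GGGCGG was found in 5 of the 9 (*Agpat2*, *Pck1*, *Gpat3*, *Gpam* and *Gk*), against 32.7% of all windows. The *Gpat3* window, and the *Gpam* window that holds TGACGT and GGGCGG, lie inside the gene as GENCODE places it. The GGGCGG of *Pck1* lies in the 25 bases left out of the sequence shown. CACGTG was found in 1 of the 9, that of *Gk*, and in 6.02% of all windows, and CCAAT in 1, of *Gpam*, and in 33.8% of all windows. TATAAA was found in 0 of the 9, against 12.4% of all windows, and the windows of *Aqp7* and *Lpin1* held none of the 5 motifs. A match describes the letters in the window and shows no binding.

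Values are normalized counts, which the authors obtained by dividing the reads of a gene by the size factor of its library and rounding. From the whole numbers that the division skips or doubles, the counted reads behind a library were estimated at 19696372 to 27603454, so counting error was small for each member, the lowest of which, *Gk*, had at least 213 normalized counts in every mouse. Female libraries had a median ratio to the mean of all 17 between 1.03 and 1.06 and male libraries between 0.948 and 0.963, so the size factors seem to come from each sex alone. The targeted gene *U90926* had 1 normalized count in each of 2 WT libraries (female 3, male 2) and none in 15 libraries, so it was at the limit of detection also in WT mice and could not serve as a check of the genotype labels. All 10 adipocyte markers were present in every group, with sums of 315673 to 798900 normalized counts in females and 685751 to 940259 in males. WT female 4 and U9-KO female 1 stood apart, with 125431 and 139608 normalized counts summed over 13 ovary markers against 4184 to 37708 in the other 8 females. The 8 epididymis markers summed to at most 7 in males. In these whole-tissue samples, fewer cells of a type and less RNA per cell cannot be told apart.

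Together the 10 members made up between 0.297% (WT female 4) and 0.820% (U9-KO female 3) of the summed normalized counts of a library. *Dgat2*, which encodes the diacylglycerol acyltransferase that takes newly made fatty acids, had the highest mean per length in all 4 groups, with 8779 normalized counts per kb of exon in WT females, 14841 in U9-KO females, 17302 in WT males and 23871 in U9-KO males. *Pck1*, *Gpd1* and *Agpat2* followed, in an order that differed between the groups. In WT females their means were 7753, 2981 and 2500 per kb, and their ranges over mice overlapped. In both female groups the range of *Dgat2* also overlapped with that of the member ranked next, and in WT females *Pck1* had the higher median, 7788 per kb against 5679 for *Dgat2*. *Dgat1*, the other diacylglycerol acyltransferase, had 1576 per kb in WT females and 2006 per kb in U9-KO males, and *Gpam* had 2424 and 2545. *Lpin1*, *Aqp7* and *Gpat3* were lower, between 526 and 1405 per kb in every group mean. *Gk* was last in all groups, with means of 35.1 to 45.9 per kb, and its range overlapped with that of no other member in any group. In U9-KO males, *Dgat2*, *Agpat2*, *Pck1* and *Dgat1* each lay above the member ranked next without overlap, whereas *Gpd1* and *Pck1*, *Gpam* and *Dgat1*, and *Aqp7*, *Lpin1* and *Gpat3* overlapped with their neighbours.

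**Figure D1:**
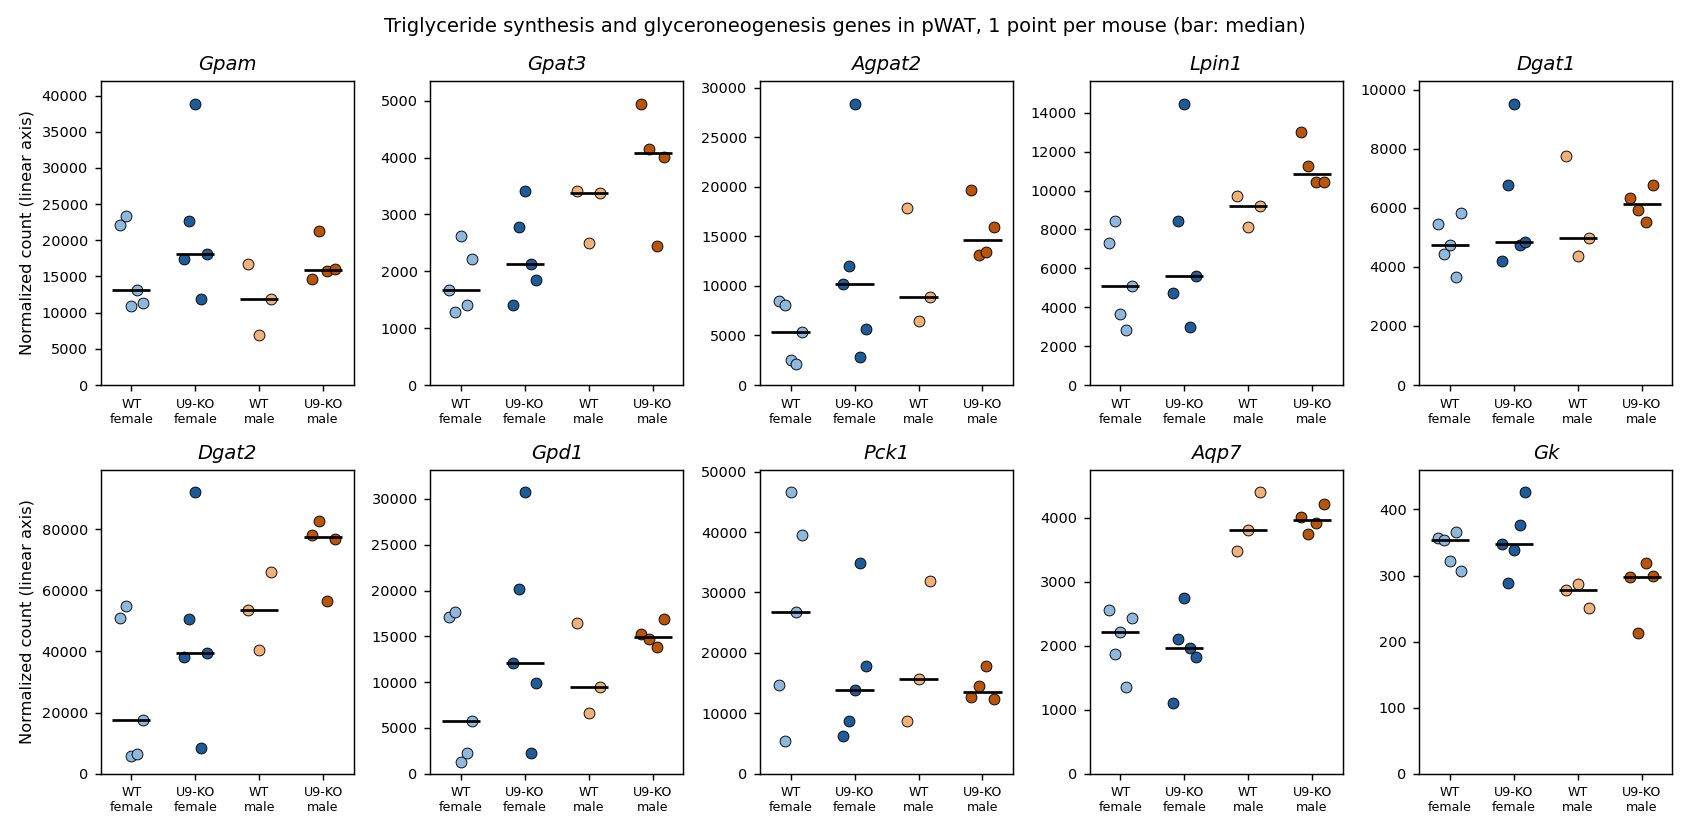
Normalized counts (vertical linear axes starting at 0) of the 10 members in each of the 17 mice, in 4 groups (horizontal axes), with a bar at the group median. *Gpd1*, *Dgat2* and *Agpat2* spread more than 10-fold over females, *Pck1* is high where they are low, *Gk* spreads least over the 17 mice, and every male lies above every female for *Aqp7*.

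Of the genes that supply the backbone, *Gpd1* had the widest fold range of any member over females. *Gpd1* (ENSMUSG00000023019, chromosome 15, 99717515 to 99725005, plus strand of GRCm38) had 17164, 17632, 1292, 2267 and 5772 normalized counts in WT females 1 to 5 and 12144, 20185, 30735, 2215 and 9897 in U9-KO females 1 to 5. WT females 3 and 4 and U9-KO female 4 were the lowest and U9-KO female 3 was the highest, a range of 23.8-fold, and the genotypes overlapped. In males *Gpd1* had 16436, 6682 and 9427 in WT males 1 to 3 and 15207, 14720, 13868 and 16936 in U9-KO males 1 to 4, so WT male 1 lay within the U9-KO range and the other WT males below it.

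*Pck1* (ENSMUSG00000027513, chromosome 2, 173153048 to 173159273, plus strand) ran the other way in females. It had 14694, 5427, 46591, 26705 and 39502 normalized counts in WT females 1 to 5 and 6312, 8742, 13931, 34824 and 17902 in U9-KO females 1 to 5. WT females 3, 4 and 5 and U9-KO female 4 were the highest, and 3 of these 4 were also the 3 lowest in *Gpd1*. In males it had 8776, 15648 and 31928 in WT and 12687, 14524, 17850 and 12360 in U9-KO, with WT male 3 the highest and WT male 1 the lowest.

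The ratio of *Pck1* to *Gpd1* within a library does not depend on the size factors. It was between 0.308 (WT female 2) and 36.1 (WT female 3) in females, with 15.7 in U9-KO female 4 and 11.8 in WT female 4, and between 0.534 and 3.39 in males. The mean log2 ratio was 1.92 ± 2.81 (SD, n = 5) in WT females, against 0.31 ± 2.22 (SD, n = 5) in U9-KO females, and 0.69 ± 1.41 (SD, n = 3) in WT males, against -0.09 ± 0.35 (SD, n = 4) in U9-KO males. The genotypes differed by -1.61 in females (two-sided exact permutation test, p = 0.357, adjusted p = 0.518) and by -0.79 in males (two-sided exact permutation test, p = 0.343, adjusted p = 0.518). The smallest p this test can give is 0.00794 for genotype in females, 0.0571 for genotype in males, 0.0357 for sex in WT and 0.0159 for sex in U9-KO mice. Adjustment was over the 16 tests of 4 ratios in 4 comparisons, so that no male genotype ratio could pass and no other ratio could pass alone, and none had an adjusted p under 0.05.

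**Figure D2:**
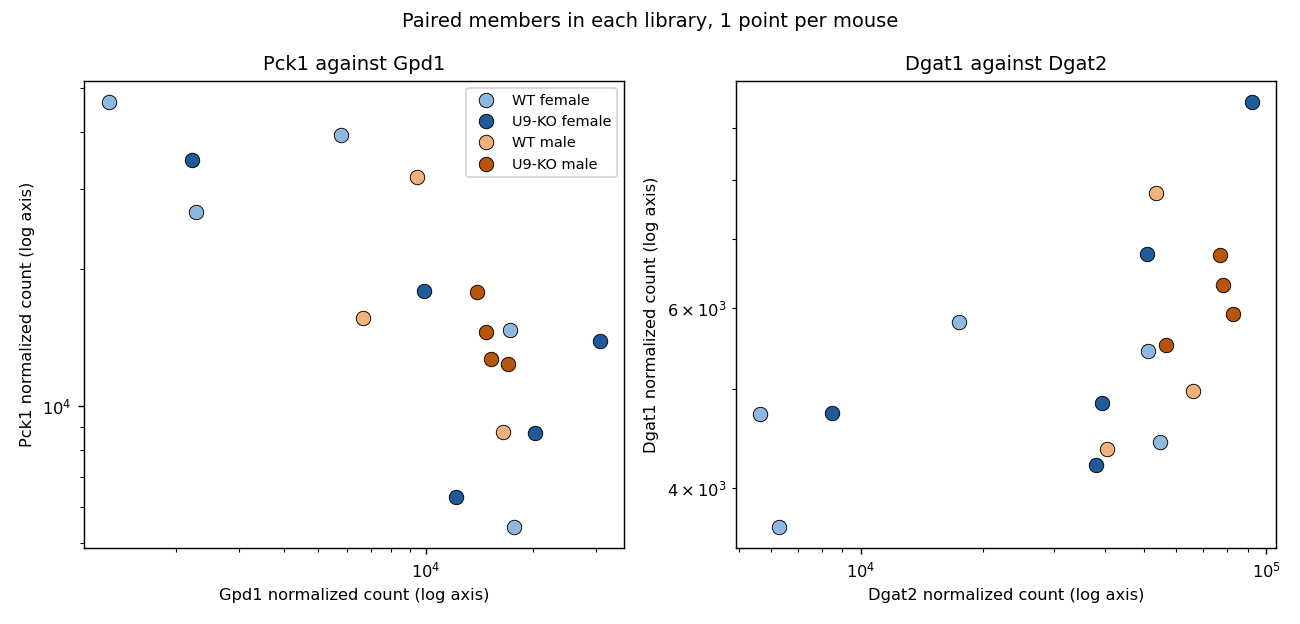
*Pck1* against *Gpd1* (left) and *Dgat1* against *Dgat2* (right) in normalized counts on log axes, 1 point per mouse and a colour per group. On the left, WT females 3 and 4 and U9-KO female 4 sit at the upper left with 1292 to 2267 for *Gpd1*, and on the right the same 3 mice sit at the far left with 5650 to 8478 for *Dgat2*.

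Glycerol itself is handled by *Aqp7* and *Gk*. *Aqp7* (ENSMUSG00000028427, chromosome 4, 41033074 to 41048139, minus strand) had 2554, 1868, 2210, 1361 and 2439 normalized counts in WT females, with 1105, 2101, 2747, 1962 and 1830 in U9-KO females. In males it had 3483, 3809 and 4401 in WT and 4016, 3743, 3916 and 4217 in U9-KO. The lowest females were U9-KO female 1 and WT female 4, the libraries with the most ovary marker RNA, and every male was above every female. *Gk* (ENSMUSG00000025059, chromosome X, 85701937 to 85776819, minus strand) had 307 to 366 in WT females, 289 to 426 in U9-KO females, 251 to 287 in WT males and 213 to 319 in U9-KO males. Its highest female value was only 1.47 times its lowest. The ratio of *Gk* to *Gpd1* had a median of 0.0358 in females and 0.0195 in males and reached 0.249 in WT female 3, where *Gpd1* was lowest.

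Of the glycerol-3-phosphate acyltransferases, *Gpam* (ENSMUSG00000024978, chromosome 19, 55067268 to 55127238, minus strand) had 22070, 23297, 10926, 13100 and 11363 normalized counts in WT females, with 17384, 22628, 38898, 11864 and 18151 in U9-KO females. In males it had 16767, 6848 and 11842 in WT and 14642, 21349, 15788 and 16062 in U9-KO. *Gpat3* (ENSMUSG00000029314, chromosome 5, 100845713 to 100899102, plus strand) had 1665, 1293, 2625, 1407 and 2219 in WT females, then 1414, 2785, 3414, 2127 and 1841 in U9-KO females, 3412, 2490 and 3372 in WT males and 4951, 4156, 2441 and 4011 in U9-KO males. *Gpam* thus had the higher counts in every mouse, and the ratio of *Gpat3* to *Gpam* had a median of 0.104 in females and 0.250 in males. Its mean log2 value was -3.11 ± 0.89 (SD, n = 5) in WT females against -1.86 ± 0.42 (SD, n = 3) in WT males (difference 1.25, two-sided exact permutation test, p = 0.0714, adjusted p = 0.381), and -3.19 ± 0.46 (SD, n = 5) in U9-KO females against -2.16 ± 0.48 (SD, n = 4) in U9-KO males (difference 1.03, two-sided exact permutation test, p = 0.0317, adjusted p = 0.254). Neither sex difference in this ratio passed the threshold after adjustment.

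*Agpat2* (ENSMUSG00000026922, chromosome 2, 26593057 to 26604417, minus strand), whose loss in people causes generalized lipodystrophy, had 8488, 8074, 2561, 2159 and 5341 normalized counts in WT females, with 10146, 12010, 28393, 2877 and 5673 in U9-KO females. The same 3 females as for *Gpd1* were the lowest and U9-KO female 3 was again the highest. In males it had 17843, 6432 and 8930 in WT and 19651, 13087, 13393 and 15923 in U9-KO, with 2 of the 3 WT males below every U9-KO male. *Agpat2* overlaps *Egfl7* on the opposite strand, which had a mean of 1819 normalized counts, 17.1% of that of *Agpat2*, and the strand setting of the counting is not given in the sources used here.

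*Lpin1* (ENSMUSG00000020593, chromosome 12, 16535669 to 16610966, minus strand), the phosphatidate phosphatase that makes diacylglycerol, had 7294, 8430, 3636, 2810 and 5073 normalized counts in WT females, with 4739, 8449, 14473, 2976 and 5611 in U9-KO females. In males it had 9706, 8109 and 9205 in WT and 13029, 11283, 10461 and 10465 in U9-KO, and every U9-KO male was above every WT male. No other member separated the genotypes in this way in either sex. Of all genes tested in males, 3.80% were likewise higher in U9-KO without overlap.

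*Dgat2* (ENSMUSG00000030747, chromosome 7, 99153658 to 99182719, minus strand) had 51004, 54872, 5650, 6293 and 17508 normalized counts in WT females, with 38143, 50698, 92090, 8478 and 39368 in U9-KO females. WT females 3 and 4 and U9-KO female 4 were again the 3 lowest, and the range was 16.3-fold. In males it had 53537, 40485 and 66004 in WT and 78234, 82697, 56642 and 76809 in U9-KO. *Dgat1* (ENSMUSG00000022555, chromosome 15, 76502015 to 76511953, minus strand) had 5439, 4437, 4726, 3665 and 5812 in WT females, then 4214, 6774, 9529, 4737 and 4838 in U9-KO females, 7764, 4365 and 4975 in WT males and 6316, 5922, 5520 and 6763 in U9-KO males. It ranged only 2.60-fold over females. The ratio of *Dgat1* to *Dgat2* was therefore 0.836 in WT female 3, 0.582 in WT female 4 and 0.559 in U9-KO female 4, against a median of 0.128 over all females. Its mean log2 value was -2.64 ± 1.02 (SD, n = 5) in U9-KO females and -3.57 ± 0.19 (SD, n = 4) in U9-KO males. These groups did not overlap, which gave the smallest p that 4 mice against 5 allow (two-sided exact permutation test, p = 0.0159, adjusted p = 0.254), and the difference was not past the threshold after adjustment.

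WT females 3 and 4 and U9-KO female 4 were thus low in *Gpd1*, *Agpat2*, *Lpin1* and *Dgat2*, and they were low in RNA of *Fasn* too. *Fasn*, the fatty acid synthase, had 18029, 38582 and 29690 normalized counts in these 3 mice against 112571 to 931443 in the other 7 females. Not every gene of de novo lipogenesis did so. WT female 4 had 21222 for *Me1* and 9081 for *Scd2*, above WT female 5 with 15726 and 5054. The adipocyte marker sums of these 3 mice were 487551, 325250 and 503159, against 315673 to 798900 over the other 7. Their oviduct marker sums were 8041 in WT female 3, 1901 in U9-KO female 4 and 279 in WT female 4, against 117 to 576 in the other 7 females. The part of other tissue, or of adipocyte content, in the low values was not tested. U9-KO female 3 was highest of all females for 8 members, every one but *Pck1* and *Gk*. WT male 2 was the lowest male for 6 members, namely *Gpam*, *Agpat2*, *Lpin1*, *Dgat1*, *Dgat2* and *Gpd1*.

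The first comparison was of U9-KO with WT within each sex, tested with limma on log2(normalized count + 1) over all genes whose values summed to 10 or more in the mice fitted, with Benjamini-Hochberg adjustment and a threshold of 0.05. In females 8 of the 10 members had a higher mean log2 value in U9-KO mice, but 0 passed, as did 0 of all 24825 genes tested (0%). The largest differences were 1.02 for *Dgat2* (SE 0.76, 95% confidence interval -0.65 to 2.68), 1.00 for *Gpd1* (SE 0.83, -0.83 to 2.83) and 0.96 for *Agpat2* (SE 0.58, -0.31 to 2.23), each with an adjusted p of 1. *Gpam*, *Lpin1*, *Gpat3* and *Dgat1* had 0.40, 0.32, 0.32 and 0.27, and *Gk* had 0.05. *Pck1* had -0.61 (SE 0.60, -1.91 to 0.70) and *Aqp7* -0.12 (SE 0.23, -0.63 to 0.39). None of the 10 had an unadjusted p under 0.05, against 2.23% of all genes tested, and no member's groups were without overlap, against 0.238%. The median over the members was 0.32, and the median over all genes tested was near 0. Without the 2 females richest in ovary markers the median of the members was 0.34 and still 0 were called. The median was 0.12 when U9-KO female 3 was left out and 0.46 when U9-KO female 4 was. Single mice moved the female differences by more than 1.5 times. Without WT female 3 those of *Gpd1* and *Dgat2* were 0.48 and 0.61, and without WT female 4 they were 0.68 and 0.65. With U9-KO female 3 left out they were 0.63 and 0.68, with 0.54 for *Agpat2*, 0.16 for *Gpam* and 0.019 for *Lpin1*. With U9-KO female 4 left out they were 1.58 and 1.54, with 1.37 for *Agpat2* and 0.59 for *Lpin1*. Over the fits that left out 1 female, *Gpat3* ranged from 0.16 to 0.48 and *Dgat1* from 0.089 to 0.38. The difference of *Pck1* was -0.32 without WT female 3, -0.38 without WT female 5 and -0.33 with U9-KO female 1 left out, while it was -1.09 without WT female 2 and -0.94 when U9-KO female 4 was left out.

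In males 9 of the 10 members had a higher mean log2 value in U9-KO mice, and again 0 passed, as did 0 of 21930 genes tested (0%). The differences were 0.60 for *Agpat2* (SE 0.29, 95% confidence interval -0.04 to 1.25), 0.60 for *Gpam* (SE 0.26, 0.03 to 1.17), 0.58 for *Gpd1* (SE 0.24, 0.04 to 1.12), 0.48 for *Dgat2* (SE 0.20, 0.04 to 0.91) and 0.33 for *Lpin1* (SE 0.11, 0.09 to 0.56), with adjusted p between 0.612 and 0.657. *Gpat3* had 0.30, *Dgat1* 0.15, *Gk* 0.04 and *Aqp7* 0.03, and *Pck1* had -0.20 (SE 0.34, -0.97 to 0.56). An unadjusted p under 0.05 was reached by 4 of 10 (*Lpin1*, *Dgat2*, *Gpd1* and *Gpam*), all higher in U9-KO, against 3.51% of all genes tested in that direction. The members do not vary independently, as the mice above show, so this share is a description. *Lpin1* was the only member without overlap between the groups, against 3.80% of all genes in that direction. The median over the members was 0.31, and over all genes tested it was near 0.

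Single WT males moved some of the male differences strongly, among them those of *Gpd1*, *Agpat2* and *Pck1*. Over the fits that left out 1 male, *Lpin1* ranged from 0.25 to 0.38 and *Dgat2* from 0.29 to 0.65. Without WT male 1, the WT male highest in *Gpd1* and *Agpat2*, the difference for *Gpd1* was 0.93 and passed (limma, adjusted p = 0.0415), with 71 genes called in all (0.331%), and *Agpat2* was at 1.01 (limma, adjusted p = 0.0525). Without WT male 2, the lowest in 6 members, *Gpd1* had 0.28 and *Agpat2* 0.28, and without WT male 3 *Pck1* had 0.28 in place of -0.20. With both sexes in 1 fit and sex as a covariate, 0 of 10 members and 0 of 26289 genes (0%) passed. *Gpam* and *Agpat2* had an unadjusted p under 0.05, both higher in U9-KO, as had 4.02% of all genes in either direction and 1.94% in that direction. A difference in the genotype effect between the sexes was found for 0 members and 0 of 26289 genes (0%), with member estimates from -0.54 (*Dgat2*) to 0.40 (*Pck1*) and an adjusted p of 1 for each.

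**Figure D3:**
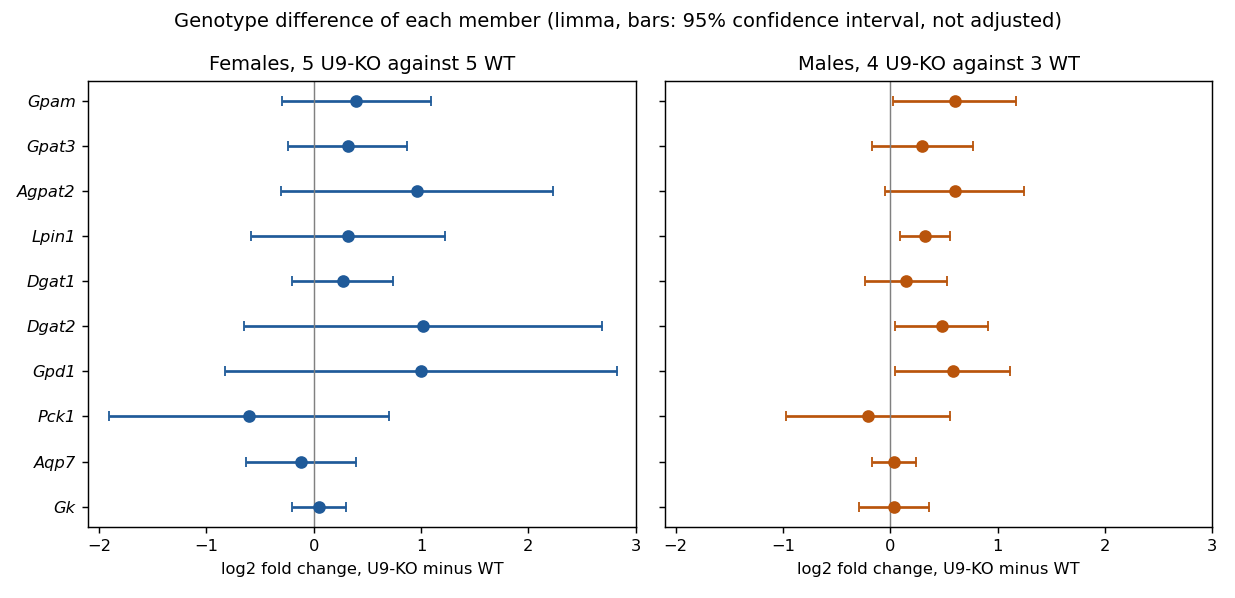
Difference between U9-KO and WT (horizontal axes, log2 scale, above 0 means higher in U9-KO) for the 10 members in females (left) and males (right), with 95% confidence intervals that are not adjusted for the number of genes. All female intervals include 0, and in males those of *Gpam*, *Lpin1*, *Dgat2* and *Gpd1* lie just above 0.

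The pathway genes around the members gave the same counts of calls. Of the other acyltransferases and phosphatases (14 tested), the other glycerol and glycerol-3-phosphate genes (12 of 14 tested), the acyl-CoA synthetases (7), the regulators (13), de novo lipogenesis (10) and lipolysis (7), 0 passed in females and 0 in males. De novo lipogenesis had the largest list medians, 0.91 in females (10 of 10 with a higher mean in U9-KO) and 0.66 in males (9 of 10), and the members with the highest mean counts over the 17 mice were *Scd1*, the stearoyl-CoA desaturase, *Fasn* and *Acly*, the ATP citrate lyase. The level of *Acly* in WT females was 33300 ± 34968 normalized counts (SD, n = 5), and that of U9-KO females was 89926 ± 88672 (SD, n = 5), with 238318 in U9-KO female 3. Medians of the other lists were between -0.01 and 0.23. Among the regulators, all 13 had a higher mean in U9-KO females, with a median of 0.23, and the one with the highest mean count, the adipocyte factor *Cebpa*, was at 13810 ± 4681 (SD, n = 5) in WT against 15855 ± 4462 (SD, n = 5) in U9-KO females. The adipocyte markers had a median genotype difference of 0.04 in females and 0.01 in males, with 0 called.

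Marker lists of other cell types also had 0 genes called by genotype. All 6 brown or beige adipocyte markers had a higher mean log2 value in U9-KO females (median 0.69), and so had all 5 tested in males (median 0.51). *Cidea* was the only 1 of the 6 with an unadjusted p under 0.05 in females, at 3.04 times the WT level on the scale of the fit (limma, adjusted p = 1). They were present in every group but low, with sums of 369 to 513 normalized counts in WT females, 427 to 1334 in U9-KO females, 331 to 1064 in WT males and 408 to 1216 in U9-KO males. The highest sum was that of U9-KO female 3, the female highest in 8 members. In females the 6 macrophage markers were all lower in U9-KO by mean (median -0.19), as were the 6 mesothelium markers (median -0.16), while the medians were -0.13 for ovary, 0.23 for oviduct and 0.37 for blood markers. The 4 skeletal muscle markers tested had the lowest female median, -0.75, and 1 was lower with an unadjusted p under 0.05. In males the 5 B cell markers all had an unadjusted p under 0.05 and were lower in U9-KO mice (median -0.99). The 6 macrophage markers had a median of -0.38, and 3 were lower with an unadjusted p under 0.05. Their sums were 23854 to 39874 normalized counts in WT and 17757 to 23509 in U9-KO males. Of all 21930 genes tested in males, 1667 had an unadjusted p under 0.05, 769 of them higher in U9-KO. Markers of 1 cell type may not vary independently. Other male medians included -0.68 for oviduct (3 tested), -0.40 for blood, -0.14 for endothelium, 0.18 for ovary (9 tested) and 0.53 for skeletal muscle (3 tested). The part of these cell types in the differences of the members was not tested.

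Within each sex, the levels of the members were set against the mean log2 level of the adipocyte markers, with the genotype means removed, in 20 of 30 correlations computed. In females *Aqp7* (Pearson r = 0.90, permutation p = 0.00131, adjusted p = 0.0393, and Spearman rho = 0.75, permutation p = 0.0177, n = 10), *Dgat1* (r = 0.82, permutation p = 0.00332, adjusted p = 0.0418, and rho = 0.78, permutation p = 0.0105, n = 10) and *Lpin1* (r = 0.81, permutation p = 0.00418, adjusted p = 0.0418, and rho = 0.90, permutation p = 0.000710, n = 10) passed by Pearson's r. By Spearman's rho, *Lpin1* passed (permutation, adjusted p = 0.0213), *Aqp7* and *Dgat1* did not (permutation, adjusted p = 0.0758 and 0.0712), and *Agpat2* did (rho = 0.88, permutation p = 0.00156, adjusted p = 0.0234). Without the 2 females farthest from the median marker level, WT female 4 and U9-KO female 1, r was 0.62, 0.75 and 0.91. For the other members r was between -0.21 (*Gk*) and 0.67 (*Dgat2*) and its adjusted p was not past the threshold, with -0.14 for *Pck1*. Without the same 2 females, r was 0.95 for *Agpat2*, 0.91 for *Gpd1* and *Gpam*, 0.89 for *Dgat2* and -0.60 for *Pck1*. In males 0 of 10 passed, with r between -0.15 (*Gk*) and 0.82 (*Dgat2*, exact permutation p = 0.0179, adjusted p = 0.107, and rho = 0.64, exact permutation p = 0.139, n = 7), and r for *Dgat2* was 0.51 without WT males 2 and 3.

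The other 10 correlations were with the ovary markers in females. The lowest r was that of *Aqp7* (Pearson r = -0.83, permutation p = 0.00757, adjusted p = 0.0568, and Spearman rho = -0.71, permutation p = 0.0270, n = 10), and it was -0.18 without WT female 4 and U9-KO female 1, so that relation rests on these mice. None of the 10 passed. The same correlation with epididymis markers in males could not be run, since those markers were at or near 0.

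For each member, the gene outside the list whose log2 level was most like it over the 17 mice, after the group means were removed, was sought among 12289 genes with a mean of at least 100. *Gpd1* was closest to 9630013D21Rik (Pearson r = 0.99), with *Fasn* next (r = 0.99). *Dgat2* was closest to *Dhx32* (r = 0.98), *Lpin1* to *Mmachc* (r = 0.98), *Dgat1* to *Arl6ip1* (r = 0.98), *Agpat2* to the pseudogene *Mpc1-ps* (r = 0.98), whose reads may be shared with its parent gene, and *Gpam* to *Tmem70* (r = 0.97). *Aqp7* was closest to *Cyp4b1* (r = 0.95), *Pck1* to 2900052L18Rik (r = 0.94), *Gpat3* to the acyl-CoA synthetase *Acsl1* (r = 0.93) and *Gk* to *Trem2* (r = 0.81). Each of these was picked as the highest over all genes compared and carries no test.

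The second comparison was of males with females within each genotype. Because the median ratios of the libraries differed between the sexes, as given above, the libraries were rescaled by TMM for this comparison. *Aqp7* was higher in males by 1.06 in WT (SE 0.20, limma, adjusted p = 0.00554) and by 1.20 in U9-KO mice (SE 0.20, limma, adjusted p = 0.00161), about 2.09 and 2.30 times the female level, and it was called in both genotypes also with quantile normalization and with the values as deposited. *Gpat3* was higher in males by 0.92 in WT (SE 0.23, limma, adjusted p = 0.0198) and by 0.89 in U9-KO mice (SE 0.26, limma, adjusted p = 0.0274). These were 2 of 10 members called in each genotype, against 20.8% of 23855 genes in WT and 25.0% of 24065 genes in U9-KO mice, so the share of members called was near the background. Both were higher in males, as were 8.70% of all genes in WT and 10.1% in U9-KO mice. Of all genes called, 41.7% in WT and 40.3% in U9-KO were higher in males, against 25.2% and 24.4% with the values as deposited and 50.4% and 53.9% with quantile normalization. The median difference over all genes was -0.16 and -0.15 as deposited, and -0.04 in both genotypes after TMM.

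*Lpin1* had 0.97 in WT (SE 0.33, limma, adjusted p = 0.0603) and 0.96 in U9-KO mice (SE 0.36, limma, adjusted p = 0.0693) and was not called. *Dgat2* had 1.70 and 1.14, *Agpat2* 1.27 and 0.90, and *Gpd1* 1.01 and 0.57 in WT and U9-KO mice, none of them called. *Dgat1* had 0.35 and 0.21, *Gk* -0.19 and -0.22, *Gpam* -0.33 and -0.14, and *Pck1* -0.21 and 0.17, also not called. After TMM the sexes did not overlap for *Aqp7* in both genotypes and for *Gpat3* and *Lpin1* in WT, against 13.1% of all genes higher in males without overlap in WT and 10.3% in U9-KO. As deposited, WT male 2 with 2490 for *Gpat3* lay below WT female 3 with 2625, and WT male 2 with 8109 for *Lpin1* lay below WT female 2 with 8430.

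The calls of *Gpat3* rested on few mice. *Gpat3* was no longer called without WT male 1 (limma, adjusted p = 0.0724) or WT male 3 (limma, adjusted p = 0.0857) in WT, nor without U9-KO female 5 or U9-KO males 1, 2 or 4 in U9-KO mice (limma, adjusted p from 0.0571 to 0.0894). *Lpin1* was called in WT without WT female 1 (difference 1.11) or WT female 2 (difference 1.15). Without U9-KO female 3, the highest female in 8 members, 5 members were called higher in U9-KO males, with 1.47 for *Dgat2*, 1.31 for *Agpat2* and 1.26 for *Lpin1* beside *Aqp7* and *Gpat3*. In that fit 32.5% of all genes were called, and 14.1% were called higher in males. Without the filter on low values neither was called in WT (limma, adjusted p = 0.0585 for *Aqp7* and 0.138 for *Gpat3*), nor was *Gpat3* in U9-KO mice (limma, adjusted p = 0.159), and without the mean-variance trend *Gpat3* was not called in either genotype (limma, adjusted p = 0.0552 and 0.0645). *Aqp7* stayed called in all 17 fits that each left out 1 mouse, with differences of 0.91 to 1.15 in WT and 1.04 to 1.34 in U9-KO mice.

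Other genes moved with sex as well. All 10 adipocyte markers were higher in males in both genotypes, with 6 called in WT (median 0.92) and 7 in U9-KO mice (median 0.83), and the summed level was 325250 to 590095 in WT females and 685751 to 940259 in WT males. All 5 blood markers were called higher in males, with a median of 2.68 in WT and 1.98 in U9-KO mice, and summed to 11466 to 41769 normalized counts in females and 48271 to 122306 in males. The ovary markers were lower in males, with 8 of 13 called in WT and 9 of 13 in U9-KO mice. Of the macrophage markers 4 of 6 were called higher in males in each genotype. Of the 5 endothelium markers, 4 were called higher in males in WT and 2 in U9-KO mice. Of the 5 B cell markers, 0 were called in WT and 4 were called lower in U9-KO males. The oviduct, mesothelium and skeletal muscle lists held called genes as well. Over all genes 20.8% in WT and 25.0% in U9-KO mice were called, with 8.70% and 10.1% called higher in males.

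When libraries were instead scaled so that the mean log2 level of the adipocyte markers was equal, an alternative chosen after the data were seen, the difference in *Aqp7* was -0.02 in WT and 0.23 in U9-KO mice and was not called (limma, adjusted p = 0.944 and 0.243). *Gpat3* had -0.17 and -0.09, *Lpin1* -0.11 and -0.01, *Agpat2* 0.19 and -0.08, and *Dgat2* 0.61 and 0.16, none called. *Gpam* was then lower in males by 1.42 on the log2 scale in WT and 1.12 in U9-KO mice, *Gk* by 1.27 and 1.19, and *Dgat1* by 0.74 and 0.77, all called (limma, adjusted p at most 0.0217). On this scale 60.4% of all genes were called in WT and 65.3% in U9-KO mice. Only 0.704% and 0.931% of all genes were called higher in males, so nearly all calls were lower in males. The median of all genes was at -1.05 in WT and -0.96 in U9-KO mice on this scale, so in both genotypes *Gpam* and *Gk* lay below that median and *Dgat1* lay above it.

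**Figure D4:**
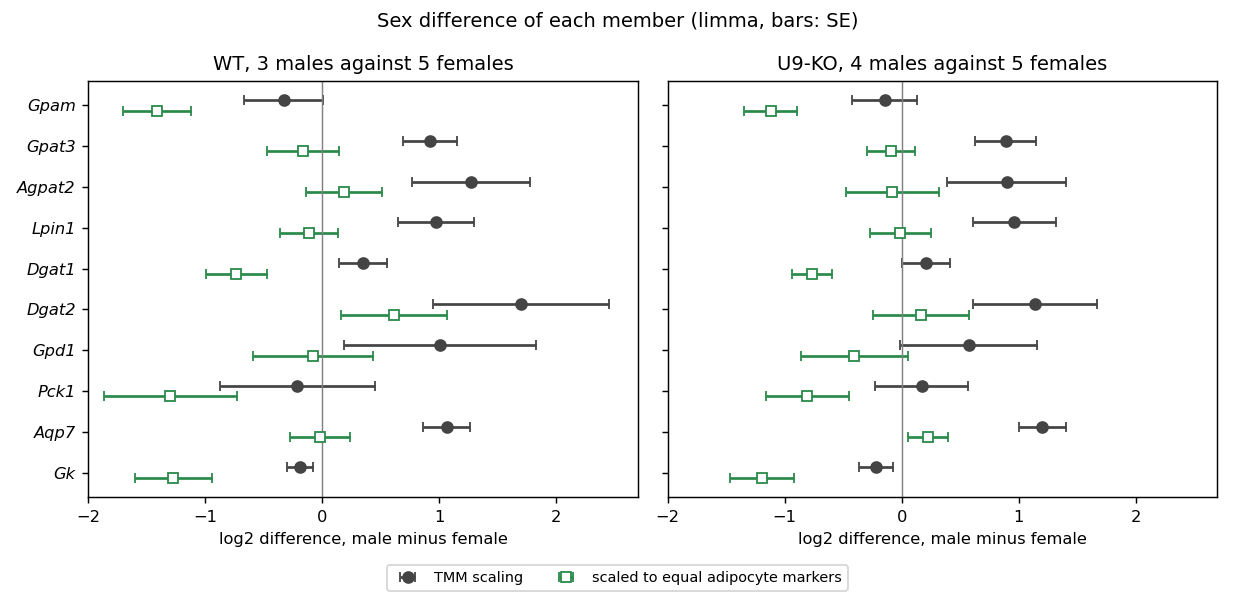
Male minus female difference (horizontal axes, log2 scale) of the 10 members in WT (left) and U9-KO (right) mice, after TMM scaling (filled circles) and after scaling to equal adipocyte marker levels (open squares), with bars for 1 SE. *Aqp7* moves from 1.06 to -0.02 in WT and from 1.20 to 0.23 in U9-KO mice, while *Gpam* moves from -0.33 to -1.42 and from -0.14 to -1.12.

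Other genes of the pathway were also called by sex, as were 20.8% of all genes in WT and 25.0% in U9-KO mice. The acyltransferase *Gpat4*, which like *Gpat3* sits in the endoplasmic reticulum, was at 2502 ± 188 normalized counts (SD, n = 5) in WT females against 4728 ± 679 (SD, n = 3) in WT males, and it was higher in males by 1.05 in WT and 1.01 in U9-KO mice (limma, adjusted p = 0.000345 and 0.000134). The monoacylglycerol acyltransferase *Mogat1* was higher by 1.97 and 1.78, and the phosphatase *Plpp2* by 0.93 and 1.05, the only other genes called among the 14 acyltransferases and phosphatases. Among the glycerol genes, the triosephosphate isomerase *Tpi1* (0.79 in WT, 0.76 in U9-KO) and the channel *Aqp11* (0.86 in both) were called higher in males, and *Pdk4*, the kinase that holds back pyruvate dehydrogenase, was called lower (-1.10 and -0.77). *Gk5* was called higher in U9-KO males only (0.39), and the difference between the genotypes was not past the threshold for any gene.

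Of the acyl-CoA synthetases, *Acsl5* was higher in males in both genotypes (0.32 and 0.28) and *Acsl6* lower (-2.83 and -3.47), and *Slc27a1* was called lower in U9-KO males (-0.86). Over all genes, 8.70% in WT and 10.1% in U9-KO mice were called higher in males. Among the 13 regulators, 7 were called higher in males in each genotype and 0 lower. These included *Pparg*, the master factor of adipocytes (1.29 and 1.07), *Cebpa* (1.04 and 0.97), *Rxra*, the partner of *Pparg* (0.88 and 0.83), *Nr1h3*, a liver X receptor (0.76 and 0.82), and *Bscl2*, which encodes the lipid droplet protein seipin (0.79 and 0.71), with *Fitm2*, which helps lipid droplets form (0.68 and 0.86). *Ppargc1a* was called in WT (0.63) and the glucocorticoid receptor *Nr3c1* in U9-KO mice (0.67). Of the 7 lipolysis genes, 3 were called higher in WT males and 4 in U9-KO males, among them *Lipe*, the hormone-sensitive lipase (0.97 and 0.87), *G0s2*, an inhibitor of adipose triglyceride lipase (1.25 and 0.97), and *Abhd5*, its coactivator (0.80 and 0.93), with the droplet coat protein *Plin1* (0.78) in U9-KO males. *Lipe* and *Plin1* are also among the 10 adipocyte markers. De novo lipogenesis had 0 of 10 called in WT and 1 in U9-KO mice, *Pnpla3* (1.09), and its medians were -0.04 and -0.25.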

How the data were processed

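Whole pWAT of 17 mice was sequenced after poly(A) selection as directional libraries. Per the authors, trimming was by trim_galore, alignment by STAR 2.7.3a to GRCm38 (version and build per the submitters' processing notes), counting by summarizeOverlaps and normalization by DESeq2 1.28.1. Each deposited value is thus a score, a read count divided by a size factor and then rounded, so no count model was used. The authors tested genotype with DESeq2, so the numbers of genes called here need not match theirs. The series table repeats the 17 single-library tables and was not used, and 2 of its male columns carry another replicate number than the label. GENCODE M21 named 55141 of 55401 genes.

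Estimated size factors were 0.757 to 1.23, found from whole numbers that a table skips or doubles. Limma 3.58.1 (R 4.3.3; lmFit, eBayes with trend) was run on log2(value + 1) over all genes with a total of at least 10 in the mice of the fit, with Benjamini-Hochberg adjustment and a threshold of 0.05, within each sex, over both sexes (covariate sex), for the interaction and, after TMM scaling, between the sexes. A fold change on this scale understates that of low genes. The fits were tested on simulated data in which every gene had the same spread between mice, unlike the members here. That test does not show how well changes in the members would be found. Ratios and correlations used permutation tests in scipy 1.17.1 (Python 3.11.15, numpy 2.4.6, pandas 2.3.3), with 100000 resamples for 10 mice. The members and lists were chosen with earlier results of these data known. Named genes are all members, the 3 most abundant genes of each list where described, listed genes that were called, and the gene most like each member. Levels per kb use the union of exons. The mice are separate animals, and no pair of libraries of a group agreed within sampling noise.

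Alternatives tried were a filter of 10 in every mouse or none, a pseudocount of 0.5, robust eBayes or no trend, TMM or deposited scaling, quantile normalization, a block for the replicate number, 1 fit over the 17 mice, dropping the covariate, and dropping each mouse in turn. Fits without the females richest in ovary markers and fits scaled to the adipocyte markers were chosen after the data were seen.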

Additional observations from a re-analysis of the deposited data

Results flagged for a closer look

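Values of the 10 members, their sum and the 4 ratios were examined for a sample far from the rest of its group in the groups of 4 or 5 mice, 45 groups in all, of which chance alone would single out about 2.25. In this way 3 values stood apart, all from U9-KO female 4, which is the lowest U9-KO female in *Gpd1* and *Dgat2* and whose members are described above. Its ratio of *Dgat1* to *Dgat2* was 0.559, while its 4 fellow U9-KO females had 0.103 to 0.134. Its ratio of *Pck1* to *Gpd1* was 15.7, against 0.433 to 1.81 in the others. Its ratio of *Gk* to *Gpd1* was 0.170, against 0.0110 to 0.0430. The ratios share *Gpd1* or move with it, so they are not separate observations. No level of a single member stood apart in this way in any group tested, and the group of 3 WT males was not examined.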

How the results depend on the processing

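In genotype comparisons, 0 genes were called with the main settings and no member was called in any alternative except without WT male 1. The counts of genes called moved to 2 in females, 16 in males, 1 in both sexes and 3 for the interaction without the filter, and to 1 in females, 1 in males and 1 in both sexes without the trend. In both sexes together the count was also 1 with a pseudocount of 0.5 and 1 with no covariate. Leaving out 1 mouse gave 0 to 71 genes and 0 to 1 member in males. An unadjusted p under 0.05 was reached by 553 genes in females, 1667 in males, 1057 in both sexes and 910 for the interaction. Estimates near 0 changed sign, and over the fits that leave out 1 mouse they were -0.27 to 0.067 for *Aqp7* and -0.017 to 0.12 for *Gk* in females, and -0.024 to 0.39 for *Dgat1*, -0.65 to 0.28 for *Pck1*, -0.045 to 0.12 for *Aqp7* and -0.027 to 0.17 for *Gk* in males. When scaled to the adipocyte markers, *Gk* in females had -0.072.

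Between the sexes, 2037 genes were called in WT and 3327 in U9-KO mice without the filter, with 0 and 1 members. Without the trend 1 member was called in each genotype. Leaving out 1 mouse gave 2627 to 5501 genes and 1 to 3 members in WT, and 4059 to 7699 genes and 1 to 5 members in U9-KO mice, and the sign changed within -0.63 to 0.011 for *Gpam* and -0.71 to 0.24 for *Pck1* in WT, and within -0.31 to 0.088 for *Gpam* and -0.078 to 0.54 for *Pck1* in U9-KO mice, the lowest of these without U9-KO female 1, richest in ovary markers. When scaled to the adipocyte markers, 14401 and 15716 genes were called and the medians of the members were -0.14 and -0.25, with reversed values in WT of -0.17 for *Gpat3*, -0.11 for *Lpin1*, -0.74 for *Dgat1*, -0.077 for *Gpd1* and -0.022 for *Aqp7*, and in U9-KO mice of -0.089 for *Gpat3*, -0.080 for *Agpat2*, -0.013 for *Lpin1*, -0.77 for *Dgat1*, -0.40 for *Gpd1* and -0.80 for *Pck1*. This scaling sets all genes against markers that were themselves higher in males. The cause of the other changes was not tested.

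The replicate numbers did not pair the mice: deviations of mice with the same number correlated from -0.43 to 0.13, and not every mouse correlated best with its own number. With the replicate block 0 genes were called in each genotype comparison and in the interaction, 1709 in WT (2 members) and 3492 in U9-KO mice (1 member) between the sexes, *Gpat3* in U9-KO mice was not called (limma, adjusted p = 0.126), and *Pck1* in WT had 0.21. Since no ratio could pass alone after adjustment, a pseudocount of 1 in both genes or leaving out a mouse says nothing about the stability of the ratio tests. Of 30 correlations, 3 passed by Pearson's r and 2 by Spearman's rho. With no genotype mean subtracted the number was also 3.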
